A study of Mus musculus with 90 samples.

Results

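Gene expression was compared between wild-type mouse embryonic stem cells (day 0) and embryoid bodies grown from them for 6 days (day 6), the early step of a time course that ended on day 10. The step is covered by 6 RNA-seq libraries, 3 of each day, out of 36 in the table of counts for embryoid bodies and 90 in the series. The study asked how CBX7, a chromodomain subunit of Polycomb repressive complex 1 (PRC1), acts in differentiation. It used J1 mouse embryonic stem cell lines with wild-type CBX7 (WT), without CBX7 (KO), or with CBX7 variants named CaPS and mCaPS, taken into embryoid bodies or neural progenitor cells. All 6 libraries here came from the WT line. Day 0 cells had been cultured on mouse embryonic fibroblast (MEF) feeders on gelatin, in medium with serum and leukemia inhibitory factor (LIF). For embryoid bodies the feeders were removed and the cells were set in hanging drops, in a medium with serum and without LIF among its listed components. The drops were pooled after 4 days and kept in suspension. The labels do not say whether the cells collected on day 0 had gone through the same feeder removal. RNA was total RNA depleted of ribosomal RNA. Nor do the labels say whether replicates were separate cultures, so the p-values measure only the spread between libraries of a group, which may be technical. Unless stated otherwise, that spread was estimated over all 36 libraries for embryoid bodies.

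In cultures with serum, naive pluripotency, the state of the inner cell mass, is maintained by LIF acting through its receptor, the JAK kinases and the transcription factor STAT3. Once LIF is withdrawn, cells pass through a formative state like that of the epiblast after implantation, known for Fgf5, Otx2 and the de novo DNA methyltransferases and for the persistence of Pou5f1 (OCT4). Cells that go on through the primitive streak make T, Eomes and Mixl1 and give rise to mesoderm and definitive endoderm.

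The libraries numbered 1 stood apart from the others on both days. They held 13474664 counts on day 0 and 13124625 on day 6, against 39775133 to 44336504 in replicates 2 and 3. Rn45s, the ribosomal RNA precursor, took 2.8% to 3.0% of their counts and 22.1% to 47.4% in the others. Even numbers made up 42.6% to 42.8% of their counts from 1 to 20, against 73.5% to 77.4%. Gapdh, a glycolytic enzyme gene with many near-identical pseudogenes, was at 8.5 to 13.2 CPM (counts scaled to a common library size, here without Rn45s) in them and at 148.1 to 623.0 in the others. RNA of fibroblast marker genes was higher in every day 0 library than in any day 6 library. The 6 defining markers (Col1a1, Col1a2, Col3a1, Thy1, Postn and Prrx1) summed to 205, 1126 and 2546 CPM, here scaled by TMM normalization, in day 0 replicates 1, 2 and 3 and to 9.06, 23.2 and 46.0 CPM on day 6, and none was at 0 in all libraries. Fibroblast RNA on day 0 was thus lowest in replicate 1 and highest in replicate 3, called the fibroblast order from here on. In bulk RNA, fewer cells of a type and less RNA per cell cannot be told apart.

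The markers of the labelled cells were present. The 8 stem cell markers summed to 2567, 2815 and 3039 CPM on day 0, to 1343, 1105 and 1623 CPM on day 6, and to 123, 283 and 370 CPM on day 10. Heart, blood and endothelial markers were low in all 6 libraries. The 5 cardiomyocyte markers summed to 5.80 to 14.3 CPM on day 0 and 3.09 to 13.1 CPM on day 6, against 109.7 to 930.0 CPM on day 10. The 3 blood markers stayed between 0.113 and 1.27 CPM, and the 3 endothelial markers between 3.18 and 7.25 CPM. The 5 visceral endoderm markers were at 4.04, 7.66 and 4.04 CPM on day 0 and at 30.8, 53.3 and 115 CPM on day 6, most of it from Cubn. The neural markers Sox1, Pax6 and Tubb3 summed to 60.4 to 135 CPM on day 0 and 45.5 to 63.9 CPM on day 6.

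Of 17791 genes tested with edgeR's quasi-likelihood test, 580 (3.26%) rose and 822 (4.62%) fell from day 0 to day 6 at a Benjamini-Hochberg adjusted p below 0.05, together 7.88%. The median log2 fold change over all genes tested was -0.02. At an unadjusted p below 0.05, 3617 of the 17791 passed, the share to set beside the list counts at that p below. With the replicate number as a block, 1129 rose (6.35%) and 1271 fell (7.14%), and these included 570 of the 580 and 802 of the 822. Without replicate 1 of the WT and CaPS lines, 428 of the 580 and 710 of the 822 passed. In 6 reduced fits, each of the 6 WT libraries was left out in turn. Of the 1402 genes, 512 (162 higher and 350 lower) passed in each of the 6 and all 1402 kept their sign. The number of higher genes was 254 without day 0 replicate 3 and also 254 without day 6 replicate 2, 282 without day 0 replicate 2, and 375 without day 6 replicate 3. The number of lower genes was 444 without day 0 replicate 3, 496 without day 6 replicate 2 and 535 without day 6 replicate 3. Among the 822 lower genes, 531 (64.6%) had day 0 levels in the order replicate 1, 2, 3 from lowest to highest, the order of the fibroblast markers. The same order was found in 25.4% of all genes tested and in 116 of the 580 higher genes. With the mean of 22 fibroblast and feeder genes as a covariate, 930 genes were higher and 1153 lower, the median over all genes was 0.11, and 33 of 132 genes followed through the alternative fits turned sign. The covariate itself differed between the days. It was 4.35, 5.94 and 6.89 in day 0 replicates 1, 2 and 3 (mean log2(CPM + 1)). On day 6 it was 1.87, 2.18 and 2.45. Feeder RNA and the day thus cannot be cleanly told apart in that fit, and a call kept or lost there does not measure feeder RNA. In the falls below, with or without the fibroblast order, the part of feeder RNA was not tested. Replicate 1 lost fibroblast RNA as well (median log2 ratio of -3.24 over the fibroblast list). The replicate 1 differences given below therefore do not isolate that part.

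**Figure D1:**
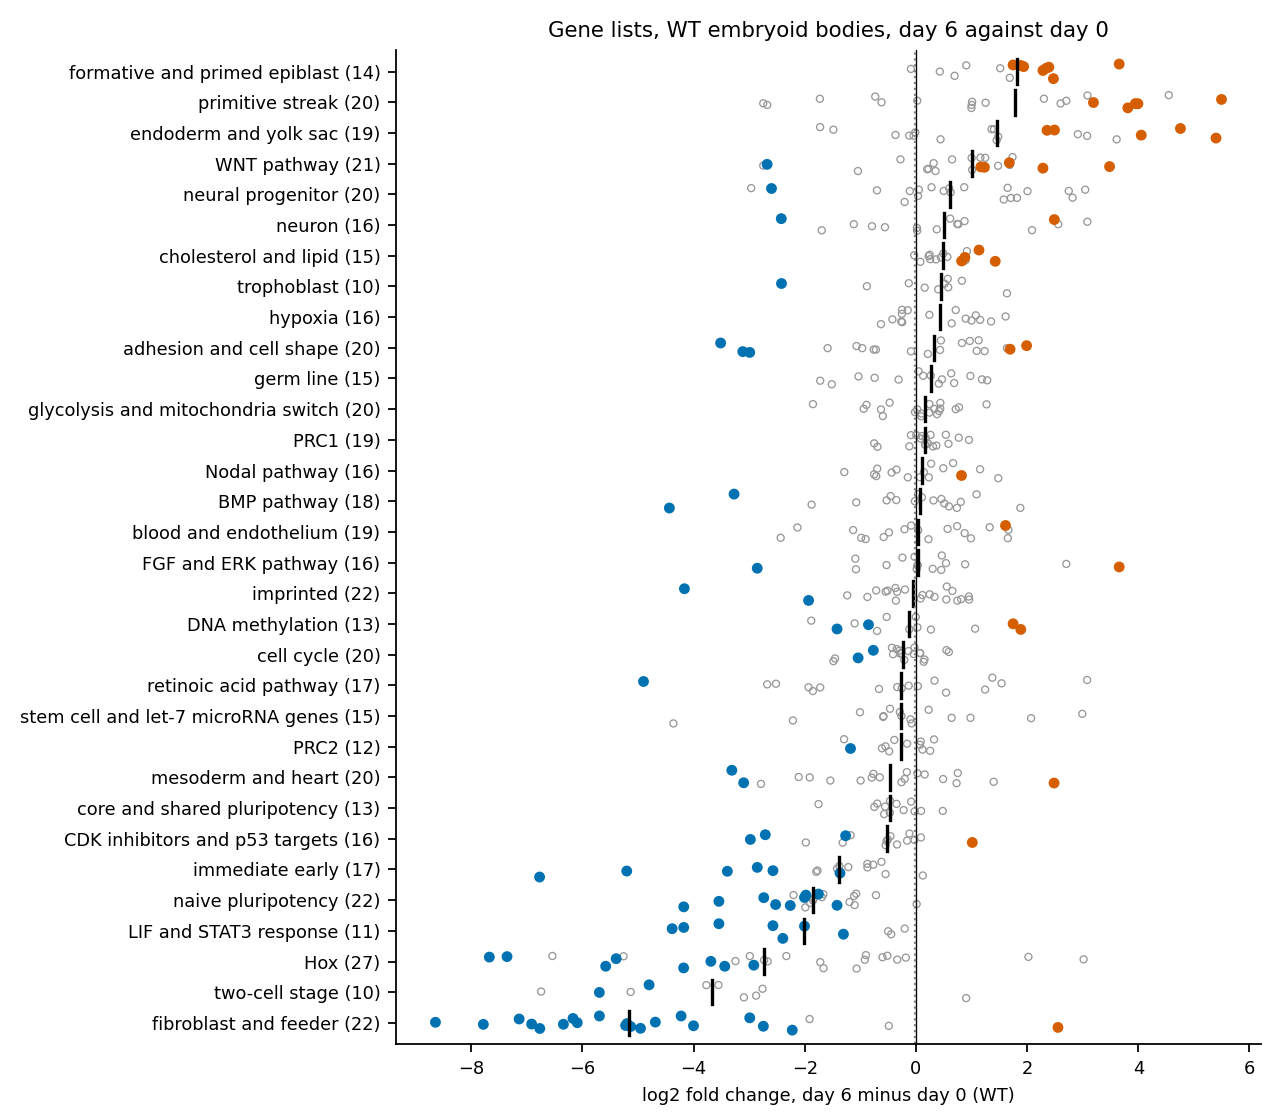
Log2 fold change from day 0 to day 6 in WT embryoid bodies (x axis) for the genes tested of each of 32 gene lists (y axis, number tested in parentheses). Filled orange points are genes higher and filled blue points genes lower at an adjusted p below 0.05, open points are the rest, the black bar is the list's median and the dotted line the median of all genes (-0.02). Formative genes lie highest (median 1.82) and fibroblast genes lowest (median -5.17).

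Of 11 genes tested that respond to LIF, 7 fell (Socs3, Stat3, Klf4, Junb, Bcl3, Pim1 and Tfcp2l1) and 0 rose, with a median log2 fold change of -2.01 against -0.02 over all genes. Socs3, the feedback inhibitor of JAK kinases (chr11:117966087-117969366, minus strand in mm10), was at 90.8, 84.1 and 134 CPM in day 0 replicates 1, 2 and 3 and at 5.29, 5.44 and 6.34 CPM on day 6. Its 3 day 6 libraries lay close together and far below all 3 of day 0. The change was -4.18 ± 0.47 (log2, SE; adjusted p = 1.8e-06), that is 18.1-fold lower. Stat3, the transcription factor of the pathway (chr11:100886806-100939540, minus strand), was at 135, 132 and 167 CPM on day 0 and 21.9, 27.2 and 33.2 CPM on day 6. The groups again lay apart, with a change of -2.39 ± 0.24 (adjusted p = 5.52e-07). Between its 2 libraries replicate 1, where fibroblast RNA fell as well, showed a Socs3 difference of -3.98 and a Stat3 difference of -2.59. Bcl3, a STAT3 target that acts with NF-kappaB, was at 5.34, 39.5 and 35.4 CPM and then 0.844, 1.09 and 1.84 CPM, a change of -4.39 ± 0.82 (adjusted p = 0.000723). Junb, an AP-1 subunit, changed by -2.57 ± 0.55 (adjusted p = 0.00283) and Pim1, a kinase, by -1.30 ± 0.39 (adjusted p = 0.0336). The receptor chains were not called. Lifr changed by -0.50 ± 0.26 and Il6st by -0.44 ± 0.21 (adjusted p = 0.293 and 0.217), and the kinase Jak1 by -0.20 ± 0.32 (adjusted p = 0.803). Pim3, a further target kinase, was lower in all 3 day 6 libraries without a call (-1.30 ± 0.52, adjusted p = 0.132). The calls of Socs3, Stat3, Klf4, Junb and Bcl3 held in each fit that left out 1 library, with adjusted p up to 0.0197. Pim1 lost its call in 4 of 6 (kept without day 0 replicate 1 and day 6 replicate 3, otherwise adjusted p up to 0.155) and Tfcp2l1 in 5 of 6 (kept without day 0 replicate 1, otherwise adjusted p up to 0.184). With the fibroblast covariate, Socs3 (-2.73, adjusted p = 0.0109) and Stat3 (-1.51, adjusted p = 0.011) passed and the other 5 did not, with the sign turned in Bcl3 (0.59), Pim1 (0.07) and Tfcp2l1 (0.70).

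The promoter of Socs3 is shown because it is the member of this list with a STAT motif before its start. The stretch is the 250 bases before the transcription start, chr11:117969367-117969616 on the minus strand of GRCm38.p6, from RefSeq, printed 5′ to 3′ with the match to TTCNNNGAA in capitals.
Socs3: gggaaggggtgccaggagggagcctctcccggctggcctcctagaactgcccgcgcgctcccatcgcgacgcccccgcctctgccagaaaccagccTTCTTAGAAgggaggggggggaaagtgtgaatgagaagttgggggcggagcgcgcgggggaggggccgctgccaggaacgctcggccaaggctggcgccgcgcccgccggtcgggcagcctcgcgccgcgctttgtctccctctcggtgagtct
The match lies 154 to 146 bases before the start and reads the same pattern on both strands. TTCNNNGAA was found in 2197 of 27025 mouse promoters of this length (8.13%) and in 1 of the 11 promoters of the LIF list (9.09%). A match of letters is a description of the window and not a measured binding site.

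Of 22 naive pluripotency genes tested, 9 fell and 0 rose (median log2 fold change -1.85), and of 13 core factors 0 passed. A further count, not a test, is that 18 of the 22 had all 3 day 6 libraries below all 3 of day 0, which held for 11.8% of all genes tested. Zfp42 (REX1), a marker of the naive state (chr8:43295067-43307009, minus strand), was at 549.6, 369 and 346 CPM on day 0, at 131, 49.1 and 83.7 CPM on day 6 and at 12.1, 10.6 and 17.4 CPM on day 10. Each day lay below the one before it without overlap, and the change to day 6 was -2.26 ± 0.67 (adjusted p = 0.0336). Klf4, a reprogramming factor, was at 81.4, 164 and 185 CPM and then 5.8, 10.2 and 20.7 CPM (-3.54 ± 0.68, adjusted p = 0.00106). The day 0 values of 3 of the 9 (Klf4, Tfcp2l1 and Tet2) followed the fibroblast order, and in Klf4 replicate 1 alone differed by -3.70. Tfcp2l1, a LIF-responsive factor of the naive network, was at 201, 335 and 463 CPM and then 95.5, 44 and 109 CPM (-2.01 ± 0.61, adjusted p = 0.0401). Falls were also called for Klf2 (-1.75 ± 0.55, adjusted p = 0.0471), the nuclear receptor gene Nr5a2 (-1.98 ± 0.57, adjusted p = 0.026), the oocyte and germ cell gene Dppa3 (-2.74 ± 0.78, adjusted p = 0.0262) and the AKT cofactor Tcl1 (-2.52 ± 0.68, adjusted p = 0.0175). Tet2, an enzyme that oxidises 5-methylcytosine (-1.42 ± 0.45, adjusted p = 0.0489), and Socs3, given above, completed the 9. Esrrb, an orphan nuclear receptor of the naive network, was lower in all 3 day 6 libraries, at 229.9, 476 and 496 CPM and then 98.7, 70.3 and 164 CPM, and was not called (-1.85 ± 0.72, adjusted p = 0.119). Fgf4, a growth factor of the inner cell mass, had nearly the same mean on both days (0.01 ± 0.57).

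Most of the naive calls rested on particular libraries. Klf4 and Socs3 passed in each fit that left out 1 library. Zfp42 lost its call in 5 of 6 (kept without day 6 replicate 1, otherwise adjusted p up to 0.155) and Klf2 in all 6 (adjusted p up to 0.174). Nr5a2 lost its call in 4 of 6 (kept without day 0 replicate 1 and day 6 replicate 3, otherwise adjusted p up to 0.13) and Dppa3 in 4 of 6 (kept without day 0 replicate 3 and day 6 replicate 2, otherwise adjusted p up to 0.11). Tcl1 lost its call in 3 of 6 (without day 6 replicates 1, 2 and 3, adjusted p up to 0.0873) and Tet2 in 5 of 6 (kept without day 0 replicate 1, otherwise adjusted p up to 0.22). Of the 22, 2 passed with the fibroblast covariate, both lower, and the median was -0.40. With the replicate block, 16 passed. The 7 added were Klf5 (adjusted p = 0.00638), Tbx3 (adjusted p = 0.00308), Prdm14 (adjusted p = 0.0194), Gbx2 (adjusted p = 0.00985), Fbxo15 (adjusted p = 0.0324), Jam2 (adjusted p = 0.0402) and Zfp57 (adjusted p = 0.0363).

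The Zfp42 promoter is shown beside these values because it holds the octamer motif, the sequence recognised by POU factors such as OCT4, whose own RNA is given next. The stretch is the 250 bases before the start, chr8:43307010-43307259 on the minus strand of GRCm38.p6, from RefSeq, with the octamer in capitals.
Zfp42: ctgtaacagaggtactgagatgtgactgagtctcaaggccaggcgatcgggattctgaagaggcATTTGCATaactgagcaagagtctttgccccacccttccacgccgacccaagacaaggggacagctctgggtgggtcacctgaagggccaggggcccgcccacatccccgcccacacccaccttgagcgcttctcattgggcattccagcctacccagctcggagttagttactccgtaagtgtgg
The octamer ATTTGCAT lies 186 to 179 bases before the start. Counting both strands, 490 of 27025 promoters held it (1.81%), among them 1 of the 13 naive genes with an entry (7.69%).

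Of 13 core and shared pluripotency genes, edgeR called 0 (median -0.47), with 1 at an unadjusted p below 0.05 and 1 called by DESeq2. Pou5f1, the central POU factor, was at 655, 608 and 650.1 CPM on day 0, 527, 503 and 611 CPM on day 6 and 36.8, 88.1 and 119.7 CPM on day 10. Days 0 and 6 overlapped, with a difference of -0.22 ± 0.37 (adjusted p = 0.811). Per kilobase of transcript, the mean level of Pou5f1 was 442 RPKM on day 0 and 379 RPKM on day 6. Sox2, its DNA-binding partner, was at 429.7, 319 and 228 CPM and then 282, 157 and 218 CPM (-0.57 ± 0.42, adjusted p = 0.492). Nanog was at 153, 224 and 238 CPM and then 95.2, 184 and 165 CPM (-0.47 ± 0.40, adjusted p = 0.575). All 3 had ranges that overlapped between the days, and all 3 had day 10 levels below both. A p that misses the threshold does not show that levels were equal. Zfp296, a zinc finger gene, passed with the replicate block (-1.53, adjusted p = 0.00169) and without day 0 replicate 1.

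**Figure D2:**
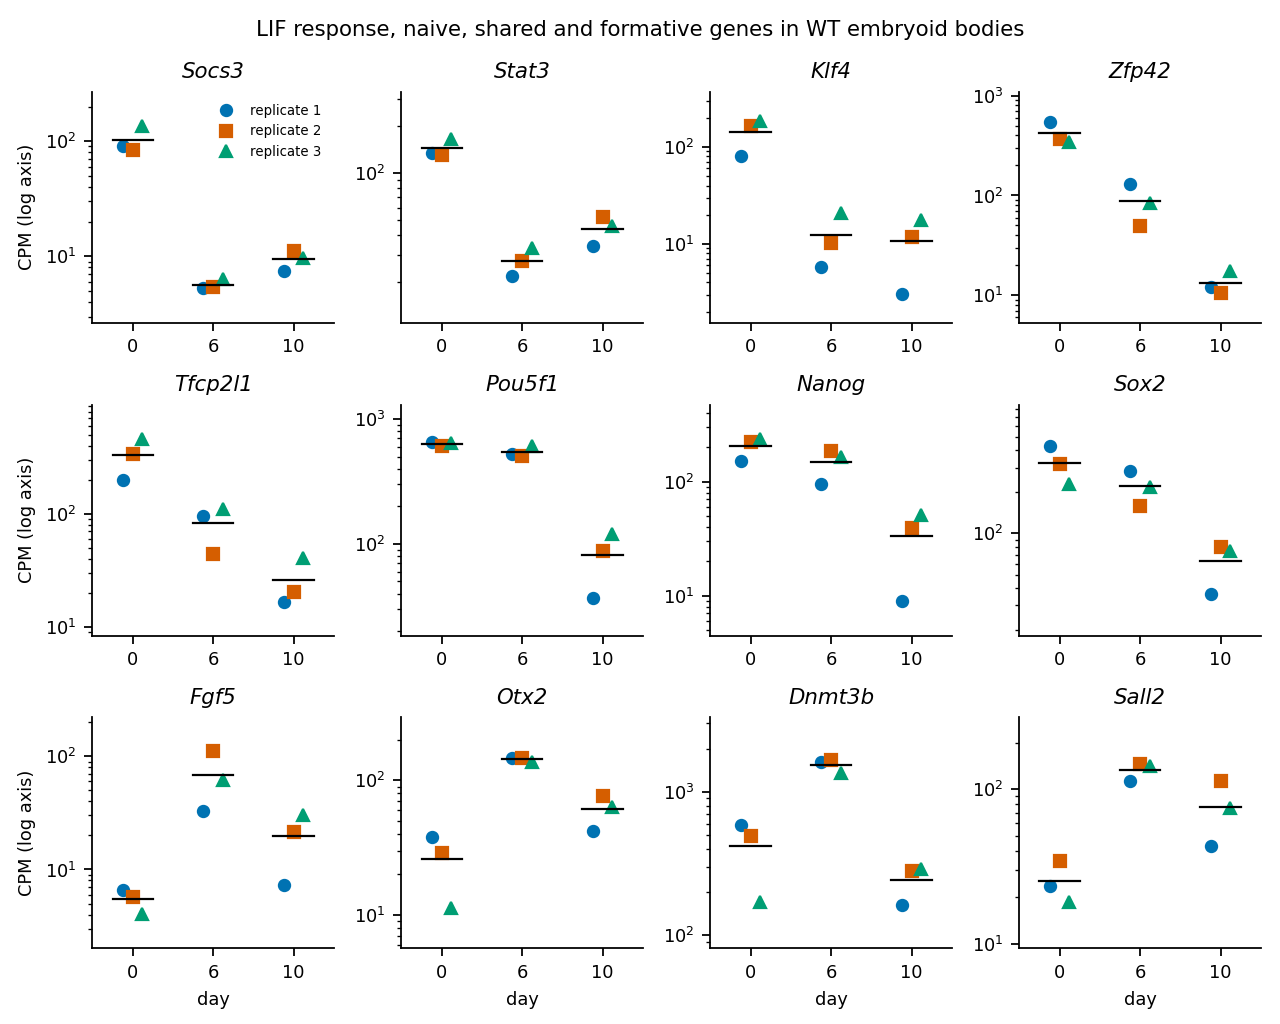
CPM (y axis, log scale) of 12 genes in each WT library on days 0, 6 and 10 (x axis). Circles, squares and triangles are replicates 1, 2 and 3 and the black line is their mean. Socs3 and Stat3 drop by day 6, Pou5f1 stays between 503 and 655 CPM until day 6, and Fgf5, Otx2, Dnmt3b and Sall2 are highest on day 6.

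Of 14 genes of the formative and primed epiblast tested, 8 rose and 0 fell (median 1.82), and in the same 8 every day 6 library exceeded every day 0 library, which held for 12.2% of all genes tested. Fgf5, the growth factor that marks the epiblast after implantation (chr5:98254184-98277033, plus strand), was at 6.59, 5.72 and 4.02 CPM on day 0, 33, 111 and 61.3 CPM on day 6 and 7.25, 21.4 and 30.3 CPM on day 10. All day 6 libraries exceeded all day 0 libraries, with replicate 2 highest (3.66 ± 0.79, adjusted p = 0.00303). Otx2, a homeobox factor that opens formative enhancers, was at 37.6, 29 and 11.3 CPM and then 147, 146 and 138 CPM. Its day 6 libraries nearly coincided while day 0 replicate 3 was low (2.47 ± 0.61, adjusted p = 0.00877). Pou3f1 (OCT6) changed by 1.94 ± 0.49 (adjusted p = 0.0118), the zinc finger gene Zic2 by 2.34 ± 0.48 (adjusted p = 0.00174), the repressor gene Sall2 by 2.39 ± 0.41 (adjusted p = 0.000282) and the WNT effector Lef1 by 2.29 ± 0.64 (adjusted p = 0.0236). Sall2 was at 23.6, 34.2 and 18.7 CPM and then 113, 146 and 142 CPM. The 6 others did not pass. Among them, the log2 fold changes of Zic5, Grhl2, Lin28b, Wnt8a and Foxd3 ran from 0.43 (Grhl2) to 1.69 (Wnt8a). Over the list, 13 of the 14 tested had a log2 fold change above 0, and the last of these 6 did not. Fgf5, Dnmt3a, Zic2 and Sall2 passed in each fit that left out 1 library. Otx2 lost its call in 1 of 6 (without day 0 replicate 3, adjusted p up to 0.0746), Pou3f1 in 2 of 6 (without day 0 replicate 3 and day 6 replicate 3, adjusted p up to 0.0746), Lef1 in 4 of 6 (kept without day 0 replicate 2 and day 6 replicate 1, otherwise adjusted p up to 0.124) and Dnmt3b in 4 of 6 (kept without day 0 replicate 1 and day 6 replicate 3, otherwise adjusted p up to 0.149). Fibroblast RNA moved the other way over the step, and with it as a covariate Dnmt3a was the 1 of the 8 that passed (1.90, adjusted p = 0.0273), while Otx2 (-0.25) and Dnmt3b (-0.45) turned sign.

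Both de novo DNA methyltransferase genes were among those that rose, while the maintenance enzyme was not called. Dnmt3a was at 132, 190.3 and 115 CPM and then 571, 318 and 578 CPM (1.75 ± 0.30, adjusted p = 0.000246). Dnmt3b was at 591, 491 and 171 CPM and then 1626, 1656 and 1349 CPM (1.89 ± 0.54, adjusted p = 0.0253). In both genes the day 6 libraries lay above all of day 0, and in Dnmt3b day 0 replicate 3 was lowest. Dnmt1, which copies methylation after replication, differed by -0.12 ± 0.17 (adjusted p = 0.78). Per kilobase of transcript, the means on day 0 were 14.6 RPKM for Dnmt3a, 65.2 RPKM for Dnmt1 and 96.5 RPKM for Dnmt3b. On day 6 the same genes were at 49.2, 60.0 and 357 RPKM, so that the order of the 3 was the same on both days. Of the 13 DNA methylation genes tested, 2 rose and 2 fell (median -0.12), beside 3.26% and 4.62% of all genes tested. The falls were Tet2, given above, and Trim28, a corepressor that keeps imprints and retroelements silent, at 2368, 1779.5 and 1437 CPM and then 1008, 961 and 1122 CPM (-0.85 ± 0.21, adjusted p = 0.0108). Trim28 lost its call in 2 of 6 (without day 0 replicate 1 and day 6 replicate 2, adjusted p up to 0.0841). Dnmt3l, the cofactor without catalytic activity, was at 112, 155 and 101 CPM and then 36.1, 18.7 and 45.1 CPM and was not called (-1.88 ± 0.74, adjusted p = 0.127). Tet3 passed with the replicate block (1.28, adjusted p = 0.00111), and so did Zfp57, listed above.

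The 3 day 6 libraries differed from each other in genes of the primitive streak and endoderm. In most of those called, replicate 1 was near the day 0 level, replicate 2 was highest and replicate 3 lay between. Of 20 streak genes tested, 5 rose (Mixl1, Eomes, Gsc, Foxa2 and Lhx1) and 0 fell (median 1.78). The median difference between same-numbered libraries, as log2 ratios of CPM + 0.5, came to -0.56, 2.55 and 0.61 for replicates 1, 2 and 3. T (brachyury), the T-box factor of the streak, was at 14.4, 6.13 and 9.31 CPM on day 0 and 2.48, 129 and 15.3 CPM on day 6. Day 6 replicate 1 lay below every day 0 library and replicates 2 and 3 above, and T was not called (2.30 ± 1.19, adjusted p = 0.279). Eomes, the T-box factor upstream of mesoderm and endoderm, was at 7.18, 9.29 and 5.63 CPM and then 8.27, 155 and 38.5 CPM (3.19 ± 0.88, adjusted p = 0.0213). The homeobox gene Mixl1 was at 0.831, 0.446 and 1.17 CPM and then 0.281, 33.8 and 5.46 CPM (3.99 ± 1.20, adjusted p = 0.036). In both, day 6 replicate 1 lay within or below the day 0 range and the others above it.

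Genes of the anterior streak and organizer had the same order of libraries. Lhx1, a LIM homeobox gene of the organizer, was at 0.297, 1.19 and 0.64 CPM and then 0.394, 70.3 and 28.2 CPM (5.50 ± 1.29, adjusted p = 0.00604). Gsc was at 0.475, 0.446 and 0.265 CPM and then 0.45, 12.2 and 3.58 CPM (3.81 ± 1.17, adjusted p = 0.0391). Foxa2, a pioneer factor of endoderm, was at 1.07, 1.23 and 0.596 CPM and then 0.506, 33.9 and 9.4 CPM (3.95 ± 1.10, adjusted p = 0.0228). In each of these, day 6 replicate 1 was within or below the range of day 0 and the other 2 day 6 libraries were above it. Cer1, a secreted antagonist of Nodal and BMP, was at 1.07, 0.558 and 0.331 CPM and then 0.0563, 29.2 and 14.1 CPM, the same pattern, and was not called (adjusted p = 0.0748). Cdx2, a posterior homeobox gene, was low on both days, at 0.475, 0.818 and 0.772 CPM and then 0.169, 1.09 and 0.811 CPM.

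Among 19 endoderm and yolk sac genes, 5 rose and 0 fell (median 1.45). Sox17, the HMG factor of endoderm (chr1:4490928-4497354, minus strand), was at 0.297, 0.52 and 0.0883 CPM on day 0 and 0.9, 15.4 and 7.11 CPM on day 6. All 3 day 6 libraries exceeded day 0, though replicate 1 by a small margin (4.76 ± 0.87, adjusted p = 0.000562). Gata6, a zinc finger factor of primitive and definitive endoderm, was at 0.772, 1.71 and 1.88 CPM and then 0.9, 14 and 7.92 CPM (2.36 ± 0.64, adjusted p = 0.0177). The chemokine receptor gene Cxcr4 was at 0.772, 0.929 and 0.574 CPM and then 0.563, 8.19 and 3.86 CPM (2.49 ± 0.77, adjusted p = 0.0403). On day 6 its replicate 1 was close to the day 0 level. Cubn, the cubilin gene of absorptive visceral endoderm, was the exception, at 2.91, 5.13 and 3.07 CPM and then 29.4, 48.9 and 106 CPM, with all day 6 libraries above day 0 (4.05 ± 1.21, adjusted p = 0.0341). Afp and Ttr, the secreted proteins of mature visceral endoderm, were at or below 1.55 CPM in all 6 libraries. Gata4, counted with the mesoderm list, was at 0.534, 2.68 and 2.14 CPM and then 2.31, 15.6 and 12.7 CPM (2.49 ± 0.79, adjusted p = 0.047). Foxa1 passed with the replicate block (2.94, adjusted p = 0.00823), as did Cer1 (4.27, adjusted p = 0.0256), and Sparc, a matrix gene also made by fibroblasts, was lower in that fit (-1.36, adjusted p = 0.00366). With the fibroblast covariate Gata6, Cubn, Sox17 and Gata4 passed (adjusted p from 0.0113 to 0.0494) and Cxcr4 did not (adjusted p = 0.164).

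These calls depended on which libraries of either day were kept. Without day 6 replicate 1, 8 of the 20 streak genes and 6 of the 19 endoderm genes rose, and without day 6 replicate 2, 1 of each did. Without day 6 replicate 3, 4 streak and 3 endoderm genes rose. Without day 0 replicates 1, 2 and 3 in turn, 1, 1 and 1 streak genes and 2, 2 and 1 endoderm genes rose. With the fibroblast covariate, 0 of the 20 streak genes passed (median 0.73) and 11 of the 19 endoderm genes were higher (median 4.59). With the replicate block, 3 streak genes passed, and the calls of Mixl1 (3.23, adjusted p = 0.149), Eomes (2.44, adjusted p = 0.0744) and Foxa2 (3.43, adjusted p = 0.0572) were lost. Lhx1 and Sox17 passed in each fit that left out 1 library (adjusted p up to 0.0472 and 0.0104). Mixl1 lost its call in 4 of 6 (kept without day 6 replicates 1 and 3, otherwise adjusted p up to 0.448) and Eomes in 4 of 6 (kept without day 6 replicates 1 and 3, otherwise adjusted p up to 0.311). Gsc lost its call in 5 of 6 (kept without day 6 replicate 1, otherwise adjusted p up to 0.284) and Foxa2 in 4 of 6 (kept without day 6 replicates 1 and 3, otherwise adjusted p up to 0.24). Gata6 lost its call in 4 of 6 (kept without day 6 replicates 1 and 3, otherwise adjusted p up to 0.19). Cxcr4 lost its call in 5 of 6 (kept without day 6 replicate 1, otherwise adjusted p up to 0.306), Cubn in 5 of 6 (kept without day 6 replicate 1, otherwise adjusted p up to 0.132) and Gata4 in 5 of 6 (kept without day 6 replicate 1, otherwise adjusted p up to 0.196). Replicate 1 also has the lower count total and the different count structure described above, and the part of these in its lower levels was not tested.

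**Figure D3:**
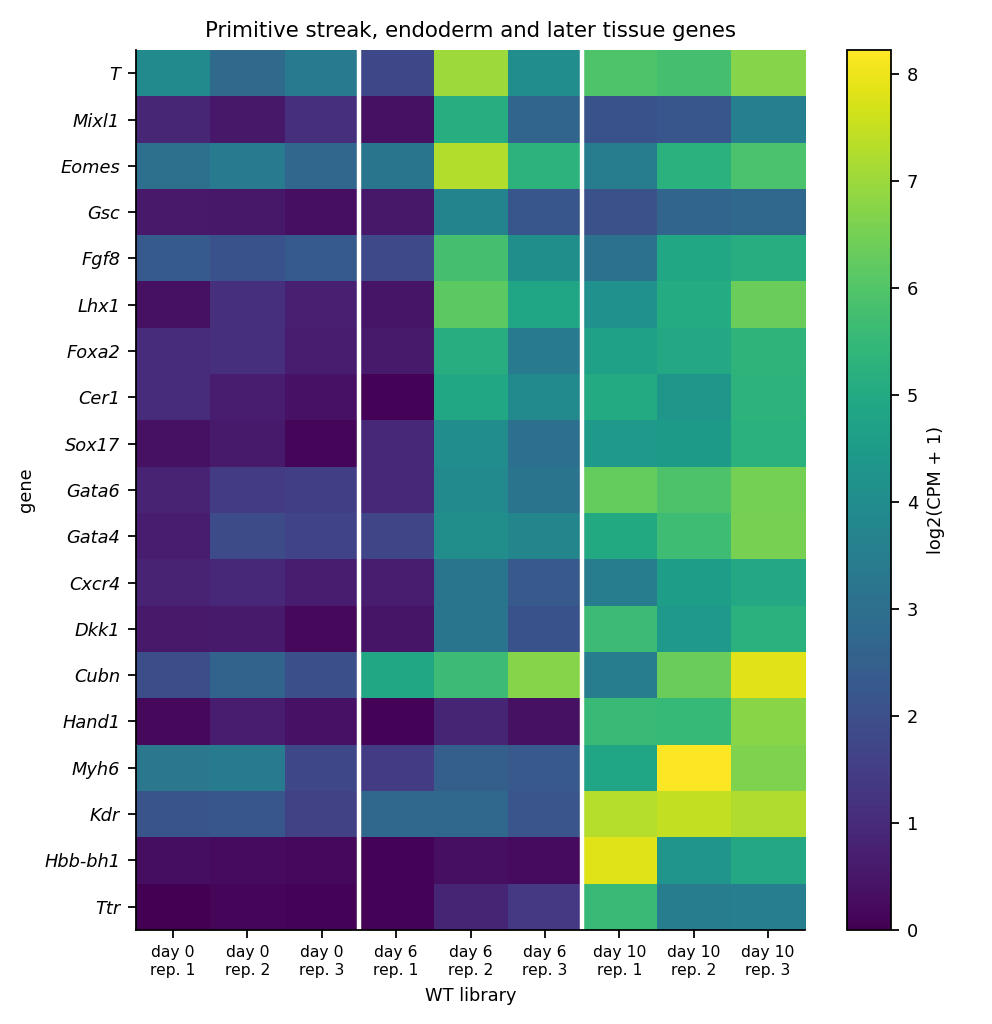
Level as log2(CPM + 1) (colour) of 19 genes (rows) in the 9 WT libraries (columns, days 0, 6 and 10, replicates 1 to 3). Most of the upper rows, streak and endoderm genes, are low on day 0 and in day 6 replicate 1 and higher in day 6 replicates 2 and 3. Cubn is already higher in day 6 replicate 1, and T in day 0 replicate 1 is near its level in day 6 replicate 3. Hand1, Myh6, Kdr, Hbb-bh1 and Ttr in the lowest rows are highest on day 10.

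In the lists of later mesoderm, blood, neural progenitors and neurons, 3 of 20, 1 of 19, 1 of 20 and 2 of 16 genes were called, beside 7.88% of all genes tested. Higher with the fibroblast covariate were 4 mesoderm, 2 blood, 6 neural progenitor and 0 neuron genes, and 0 were lower (medians 2.80, 1.76, 5.38 and 1.36). In the fit without it, of 20 mesoderm and heart genes, 1 rose (Gata4) and 2 fell (median -0.46). The falls were Meox1, at 0.855 CPM or less throughout, and Pdgfra, a receptor of mesoderm and of fibroblasts, at 20.5, 54.2 and 121 CPM and then 2.14, 9.68 and 7.78 CPM (-3.31 ± 0.73, adjusted p = 0.00345). Day 0 Pdgfra levels followed the order of the fibroblast markers. Hand1 and Mef2c, heart factors, stayed at or below 0.798 and 1.59 CPM on both days. Of 19 blood and endothelium genes, Lmo2, a partner of SCL/TAL1, rose, at 1.42, 0.446 and 0.795 CPM and then 3.54, 2.39 and 2.08 CPM (1.61 ± 0.45, adjusted p = 0.0217), and 0 fell (median 0.04). Gata2 was lower with the replicate block (-2.24, adjusted p = 0.00102). Of 20 neural progenitor genes, 0 rose and 1 fell (median 0.61). That was Emx2, at or below 2.58 CPM in every library (-2.60 ± 0.73, adjusted p = 0.0232). Sox3 was at 0.772, 2.79 and 2.87 CPM and then 3.83, 22.2 and 20.0 CPM and passed with the replicate block alone (adjusted p = 0.0594 without it and 0.00598 with it), as did Sox1 (1.87, adjusted p = 0.00248) and the RNA-binding protein gene Msi1 (1.71, adjusted p = 0.000193). Of 16 neuron genes, the exocytosis gene Snap25 rose (2.49 ± 0.68, adjusted p = 0.0197) and Gap43, a growth cone gene, fell from 21.4, 22.8 and 27.6 CPM to 3.71, 4.75 and 4.89 CPM (-2.42 ± 0.44, adjusted p = 0.000522). Emx2 and Gap43 had the fibroblast order on day 0. Meox1 lost its call in all 6 (adjusted p up to 0.172), Lmo2 in 4 of 6 (kept without day 0 replicate 1 and day 6 replicate 3, otherwise adjusted p up to 0.147), Emx2 in 3 of 6 (without day 0 replicate 3 and day 6 replicates 1 and 3, adjusted p up to 0.321) and Snap25 in 3 of 6 (without day 0 replicates 2 and 3 and day 6 replicate 3, adjusted p up to 0.104).

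Of 15 germ cell genes, edgeR called 0 (median 0.27), with 1 at an unadjusted p below 0.05, 1 called by DESeq2 and Sycp3 higher in the blocked fit (1.28, adjusted p = 0.0418). In the trophoblast list 1 of 10 was called, the AP-2 gene Tfap2c, which naive cells and germ cells also express, at 31.6, 50.2 and 19.2 CPM and then 3.21, 9.97 and 5.56 CPM (-2.42 ± 0.53, adjusted p = 0.00328). The trophoblast markers Elf5, Tpbpa and Prl3d1 summed to at most 0.221 CPM in any of the 6 libraries. Krt18, a simple epithelial keratin, passed with the block (1.81, adjusted p = 0.0254). Of 10 genes of the 2-cell stage, 2 fell and 0 rose (median -3.66). The whole list summed to 1.31, 9.22 and 2.41 CPM in day 0 replicates 1, 2 and 3. On day 6 it summed to 0.45, 0.979 and 0.477 CPM, so the size of this median rests on few counts. The calls of the trophoblast and 2-cell lists stand beside 7.88% called over all genes tested. Zscan4c was at 0.237, 3.31 and 0.552 CPM on day 0 and 0, 0.0725 and 0 CPM on day 6 (adjusted p = 0.0406) and Zscan4d at 0.237, 2.19 and 0.64 CPM and then 0.0563, 0 and 0.0477 CPM (adjusted p = 0.0356). Day 0 replicate 2 was the highest library for both. No fold is given because day 6 held 2 and 3 counts in all, and reads from the near-identical copies of this family may have been split between them. Zscan4c lost its call in 5 of 6 (kept without day 0 replicate 1, otherwise adjusted p up to 0.242) and Zscan4d in 5 of 6 (kept without day 0 replicate 1, otherwise adjusted p up to 0.18). The blocked fit added Usp17lb (adjusted p = 0.0424), with 0 counts in all day 6 libraries, and Usp17le (adjusted p = 0.0158).

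Fibroblast genes had the lowest median of the 32 lists. Of 22 tested, 19 fell and 1 rose (median -5.17), and 16 of the 19 had day 0 levels in the order of replicates 1, 2 and 3. Col1a1, a chain of type I collagen, was at 24.8, 491 and 1211 CPM on day 0 and 0.788, 5.95 and 18.2 CPM on day 6 (-6.09 ± 1.58, adjusted p = 0.0136). Its partner chain Col1a2 was at 82.6, 319 and 799 CPM and then 3.6, 6.82 and 12.6 CPM (-5.69 ± 0.99, adjusted p = 0.000331). Day 0 replicate 3 was the highest in both and no libraries overlapped. Lox, the collagen cross-linking enzyme, changed by -7.14 ± 0.81 (adjusted p = 1.8e-06), Postn, a matrix protein gene, by -6.91 ± 1.10 (adjusted p = 0.000117), and the mesenchymal homeobox gene Prrx1 by -5.22 ± 0.77 (adjusted p = 4.76e-05). S100a4, a calcium-binding protein gene of fibroblasts, changed by -8.64 ± 1.17 (adjusted p = 1.88e-05). The list summed to 631, 2225 and 4746 CPM on day 0, 143, 214 and 207 CPM on day 6 and 697, 1028 and 662 CPM on day 10. Cxcl12, a chemokine gene of stromal cells and of early embryonic tissue, went the other way, at 1.66, 8.59 and 6.27 CPM and then 12.8, 47.1 and 38 CPM (2.56 ± 0.60, adjusted p = 0.00647). Mmp2, a matrix protease gene, differed by -0.49 ± 0.48 (adjusted p = 0.639), and the smooth muscle gene Tagln passed with the block (-1.85, adjusted p = 0.0293). Col1a1 lost its call in 3 of 6 (without day 0 replicate 3 and day 6 replicates 1 and 2, adjusted p up to 0.082) and Col3a1 in 3 of 6 (without day 0 replicate 3 and day 6 replicates 1 and 2, adjusted p up to 0.0712). Col6a3 lost its call in 3 of 6 (without day 0 replicate 3 and day 6 replicates 1 and 2, adjusted p up to 0.0915), Thy1 in 1 of 6 (without day 0 replicate 3, adjusted p up to 0.0634) and Pdgfrb in 1 of 6 (without day 0 replicate 3, adjusted p up to 0.0827). The other 15 called genes passed in each fit that left out 1 library.

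Hox genes, most of them markers of position in the body and also active in fibroblasts, were low throughout. Of 27 tested, 8 fell and 0 rose (median -2.73), and all 8 had day 0 levels in the order of replicates 1, 2 and 3. Hoxc8 was at 0.415, 5.2 and 9.95 CPM and then 0.0563, 0.145 and 0.143 CPM (-5.39 ± 1.28, adjusted p = 0.00714). Hoxb9 was at 0.95, 6.62 and 11.6 CPM and then 0.281, 0.363 and 0.787 CPM (-3.69 ± 1.12, adjusted p = 0.0367). In both genes the replicate 1 level on day 0 was under 1 CPM. The difference between the replicate 1 libraries, as a log2 ratio of CPM + 0.5, was -0.72 in Hoxc8 and -0.89 in Hoxb9. At levels this near the added 0.5 the ratio is made smaller, so its size cannot be set beside the changes from edgeR. Hoxc6 was at 0.0594, 3.94 and 8.1 CPM and then 0, 0 and 0.0477 CPM (adjusted p = 0.00173, 2 counts on day 6 in all). Hoxc9 had 0 counts on day 6 and was at least 5.31-fold lower, with the floor set at 3 counts per library (adjusted p = 0.0241). The other 4 were Hoxb4 (-2.92 ± 0.66, adjusted p = 0.00418), Hoxc10 (4 counts on day 6 in all, adjusted p = 0.0245), Hoxd4 (-3.44 ± 1.00, adjusted p = 0.0257) and Hoxd8 (-4.18 ± 1.05, adjusted p = 0.00966). Hoxc6 and Hoxc8 passed in each fit that left out 1 library. Hoxb9 lost its call in 5 of 6 (kept without day 0 replicate 1, otherwise adjusted p up to 0.16) and Hoxb4 in 1 of 6 (without day 0 replicate 3, adjusted p up to 0.0546). Hoxc9 lost its call in 4 of 6 (kept without day 0 replicates 1 and 2, otherwise adjusted p up to 0.104) and Hoxc10 in 4 of 6 (kept without day 0 replicates 1 and 2, otherwise adjusted p up to 0.126). Hoxd4 lost its call in 3 of 6 (without day 0 replicate 3 and day 6 replicates 1 and 2, adjusted p up to 0.183) and Hoxd8 in 1 of 6 (without day 6 replicate 2, adjusted p up to 0.0681). With the fibroblast covariate 0 of the 8 passed. The block added Hoxb6 (-5.22, adjusted p = 0.0251) and Hoxc4 (-3.38, adjusted p = 0.012).

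**Figure D4:**
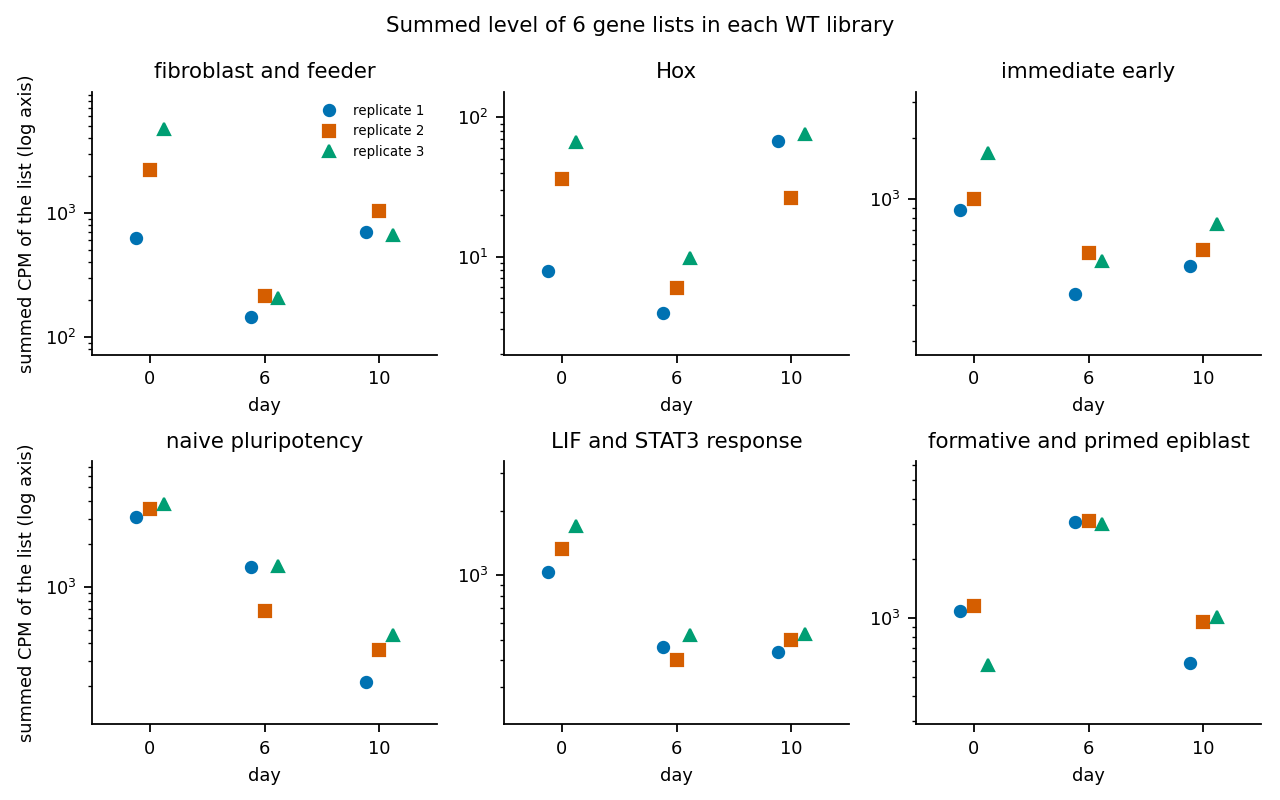
Summed CPM (y axis, log scale) of 6 gene lists in each WT library on days 0, 6 and 10 (x axis). Circles, squares and triangles are replicates 1, 2 and 3. On day 0 the fibroblast list is at 631 CPM in replicate 1 and 4746 CPM in replicate 3, and the Hox list shows the same order. The naive list lies between 3089 and 3807 CPM on day 0, and the formative list is highest on day 6, at 3002 to 3124 CPM.

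Among 20 adhesion and cell shape genes, 2 epithelial claudins rose and 3 mesenchymal genes fell (median 0.32). Cldn7 was at 16.4, 9.55 and 7.72 CPM and then 34, 43.8 and 30.8 CPM (1.69 ± 0.38, adjusted p = 0.00383), and Cldn3 changed by 1.99 ± 0.50 (adjusted p = 0.0113). Both had all day 6 libraries above day 0. Vim, the vimentin gene, was at 364, 835 and 1663 CPM and then 82.3, 159.6 and 118 CPM (-2.99 ± 0.46, adjusted p = 8.75e-05), the cadherin gene Cdh11 at 26.9, 96.4 and 179 CPM and then 3.09, 15.4 and 7.85 CPM (-3.51 ± 0.68, adjusted p = 0.00109), and the repressor Snai2 changed by -3.11 ± 0.98 (adjusted p = 0.0466). All 3 falls had the fibroblast order on day 0, and with the fibroblast covariate their signs turned (0.46, 0.94 and 3.49). Cdh1, E-cadherin, and Cdh2, N-cadherin, were not called (0.43 ± 0.42 and 0.97 ± 0.46, adjusted p = 0.638 and 0.226). Cldn3 lost its call in 2 of 6 (without day 0 replicate 3 and day 6 replicate 2, adjusted p up to 0.104) and Snai2 in 5 of 6 (kept without day 0 replicate 1, otherwise adjusted p up to 0.353). The blocked fit added Krt18, given above, Esrp1 (1.12, adjusted p = 0.00372) and Ocln (1.33, adjusted p = 0.00411) as higher and Zeb1 (-1.42, adjusted p = 0.0168) as lower.

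Immediate early genes respond to growth factors and to handling within minutes. Of 17 tested, 6 fell and 0 rose (median -1.38, and 0.55 with 3 lower with the fibroblast covariate). Fos was at 122, 51.9 and 134 CPM on day 0, 1.01, 2.57 and 4.58 CPM on day 6 and 3.83, 9.33 and 15.2 CPM on day 10. The groups of days 0 and 6 lay far apart (-5.20 ± 0.79, adjusted p = 6.59e-05), and replicate 1 alone differed by -6.33. Fosb was at 41.3, 52.6 and 108 CPM and then 0.169, 0.653 and 0.906 CPM (-6.77 ± 1.09, adjusted p = 0.00014), and Egr2 at 8.55, 3.75 and 4.61 CPM and then 0.225, 0.653 and 0.668 CPM (-3.39 ± 0.48, adjusted p = 3.27e-05). Junb, Egr1 (-2.85 ± 0.80, adjusted p = 0.024) and Jun (-1.37 ± 0.43, adjusted p = 0.0446) completed the 6. Fosb, Egr1 and Jun had the fibroblast order on day 0. Fos, Fosb, Junb and Egr2 passed in each fit that left out 1 library, and Fos (-4.54, adjusted p = 0.0115), Fosb (-5.22, adjusted p = 0.0256) and Egr2 (-4.25, adjusted p = 0.00314) passed with the fibroblast covariate. Egr1 lost its call in 4 of 6 (kept without day 0 replicate 1 and day 6 replicate 2, otherwise adjusted p up to 0.141) and Jun in 5 of 6 (kept without day 0 replicate 1, otherwise adjusted p up to 0.294). With the replicate block 10 passed, the 4 added being Ier2 (adjusted p = 0.0191), Ier3 (adjusted p = 0.0177), Nr4a1 (adjusted p = 0.00348) and Zfp36 (adjusted p = 0.0196).

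Of 21 WNT genes, 5 rose and 1 fell (median 1.01), and with the fibroblast covariate 1 was higher and 0 lower (median 1.27). The nuclear effectors Lef1, given above, and Tcf7, at 16.9, 40.3 and 30.9 CPM and then 47.7, 136 and 98.8 CPM (1.68 ± 0.51, adjusted p = 0.0361), rose, as did the receptors Fzd2 (1.23 ± 0.31, adjusted p = 0.0101) and Fzd7 (1.17 ± 0.33, adjusted p = 0.0225). The secreted inhibitor Dkk1 was at 0.475, 0.52 and 0.132 CPM and then 0.394, 8.19 and 3.24 CPM (3.48 ± 0.90, adjusted p = 0.0127), with day 6 replicate 1 at the day 0 level as in the streak genes. The ligand Wnt5a fell from 5.22, 22.7 and 52.8 CPM to 3.66, 4.46 and 4.51 CPM (-2.68 ± 0.53, adjusted p = 0.00137) and had the fibroblast order on day 0. Ctnnb1, β-catenin, differed by 0.20 ± 0.27 (adjusted p = 0.759). Tcf7 lost its call in 4 of 6 (kept without day 0 replicate 2 and day 6 replicate 1, otherwise adjusted p up to 0.195) and Fzd7 in 4 of 6 (kept without day 0 replicate 2 and day 6 replicate 2, otherwise adjusted p up to 0.117). Fzd2 lost its call in 2 of 6 (without day 0 replicate 2 and day 6 replicate 2, adjusted p up to 0.104) and Dkk1 in 2 of 6 (without day 0 replicate 3 and day 6 replicate 2, adjusted p up to 0.144). The block added Sfrp2 (1.44, adjusted p = 0.00875) and Tcf7l1 (0.89, adjusted p = 0.0176) as higher and Fzd5 (-1.07, adjusted p = 0.0309) as lower.

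In the BMP list 2 of 18 fell and 0 rose (median 0.07), beside 7.88% called over all genes tested. With the fibroblast covariate 1 was lower and 3 were higher (median 1.14). Bmp4, the BMP ligand that supports self-renewal together with LIF, was at 32.7, 36.1 and 53.3 CPM on day 0, 4.33, 4.06 and 4.25 CPM on day 6 and 51.3, 36.1 and 38.7 CPM on day 10. Day 6 libraries nearly coincided, far below day 0 (-3.27 ± 0.40, adjusted p = 6.48e-06), and day 0 levels followed the fibroblast order. The replicate 1 difference was -2.78, and the call held with the fibroblast covariate (-2.59, adjusted p = 0.0152). Grem1, a BMP antagonist also made by fibroblasts, changed by -4.44 ± 0.75 (adjusted p = 0.000229) and turned sign with that covariate (0.13). The target genes Id1, Id2 and Id3 were not called (-0.53 ± 0.60, -0.02 ± 0.42 and -1.07 ± 0.45). Smad1 and Smad5, the BMP SMADs, passed with the block (0.72 and 0.59, adjusted p = 0.0202 and 0.0487).

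In the Nodal list Smad4, the shared SMAD partner, rose, at 74.1, 77 and 88.3 CPM and then 140.3, 141 and 140.2 CPM (0.82 ± 0.18, adjusted p = 0.0036), and the other 15 tested did not pass (median of the 16 0.11). The ligand Nodal was at 52.2, 46.8 and 48.2 CPM and then 52.1, 60.3 and 50.3 CPM (0.14 ± 0.40, adjusted p = 0.899). Its inhibitors Lefty1 and Lefty2 were not called (-0.75 ± 0.59 and -1.29 ± 0.46), though Lefty2 was with the block (-1.28, adjusted p = 0.0369), and the receptor Acvr2b was higher in that fit (1.12, adjusted p = 0.000504). In the FGF and ERK list Fgf5 rose and Egr1 fell among 16 (median 0.03), both given above. The ERK feedback genes Dusp6 and Spry2 differed by 0.30 ± 0.23 and -0.24 ± 0.46 (adjusted p = 0.524 and 0.839). The block added Il17rd as higher (0.81, adjusted p = 0.00731) and Etv4 as lower (-1.08, adjusted p = 0.0109). In the retinoic acid list Crabp1, a cytosolic retinoic acid carrier, fell and the other 16 did not pass (median of the 17 -0.26). The calls of the Nodal, FGF and ERK, and retinoic acid lists stand beside 7.88% called over all genes tested. Crabp1 was at 68.4, 88.7 and 266 CPM and then 5.12, 4.02 and 4.87 CPM, with day 0 in the fibroblast order (-4.92 ± 0.53, adjusted p = 8.74e-07), and it passed with the covariate (-2.87, adjusted p = 0.0143). The block added Cyp26a1 (3.11, adjusted p = 0.046) and Stra6 (1.57, adjusted p = 0.0211) as higher and Meis1 (-1.79, adjusted p = 0.0349) as lower.

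Of 19 PRC1 genes, edgeR and DESeq2 called 0 (median 0.17), with 1 at an unadjusted p below 0.05, and of 12 PRC2 genes 1 fell (median -0.27). Over all genes tested, edgeR called 7.88%. Cbx7 was at 76.8, 132 and 126 CPM on day 0, 78.7, 111 and 119 CPM on day 6 and 7.56, 34.8 and 35 CPM on day 10. Days 0 and 6 overlapped (-0.12 ± 0.53, adjusted p = 0.94). Cbx2, its paralog with the compaction domain, was at 29, 32.9 and 28.2 CPM and then 42.3, 58.6 and 52.7 CPM, higher in all 3 day 6 libraries and not called (0.77 ± 0.42, adjusted p = 0.311). Per kilobase of transcript, mean Cbx7 was at 38.6 RPKM on day 0 and 35.6 RPKM on day 6, and mean Cbx2 at 8.0 and 13.6 RPKM, so Cbx7 was above Cbx2 on both days. Eed, the PRC2 subunit that binds trimethylated H3K27, was at 192, 132 and 87.3 CPM and then 77.2, 49.8 and 54.2 CPM (-1.18 ± 0.30, adjusted p = 0.0113). Eed lost its call in 3 of 6 (without day 0 replicate 1 and day 6 replicates 2 and 3, adjusted p up to 0.093). Ezh2, the catalytic subunit, differed by 0.09 ± 0.39 (adjusted p = 0.94) and Suz12 by 0.33 ± 0.32 (adjusted p = 0.634). In the blocked fit Kdm2b of PRC1 was higher (0.91, adjusted p = 0.00328) and Epop of PRC2 lower (-1.32, adjusted p = 0.00528).

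Cell cycle genes gave 2 calls in 20 (median -0.24), both G1 cyclins, beside 7.88% called over all genes tested. With the fibroblast covariate 5 were lower and 1 higher (median -0.97). Ccne1 was at 257, 204 and 157 CPM and then 119.8, 83.9 and 96.3 CPM (-1.04 ± 0.28, adjusted p = 0.0165) and Ccnd1 at 187, 259 and 341 CPM and then 142, 148 and 173 CPM (-0.77 ± 0.24, adjusted p = 0.0409). Ccnd1 had the fibroblast order on day 0. Mki67, a marker of dividing cells, differed by 0.55 ± 0.34 (adjusted p = 0.399). Among 16 CDK inhibitor and p53 target genes, 1 rose and 3 fell (median -0.52), and with that covariate 1 was higher and 0 lower (median 0.11). Cdkn1b, the p27 inhibitor of cyclin E kinase, was at 31.7, 27.3 and 37 CPM and then 57.7, 62 and 74.3 CPM (1.01 ± 0.21, adjusted p = 0.00187), with no overlap. Mdm2, the p53 ubiquitin ligase, was at 167, 168 and 262 CPM and then 86.1, 79.6 and 82.6 CPM (-1.27 ± 0.25, adjusted p = 0.00139). Cdkn2b (p15) changed by -2.71 ± 0.57 (adjusted p = 0.00221) and the death receptor Fas by -2.98 ± 0.68 (adjusted p = 0.00484), and all 3 falls had the fibroblast order on day 0. Ccne1 lost its call in 3 of 6 (without day 0 replicate 1 and day 6 replicates 2 and 3, adjusted p up to 0.083), Ccnd1 in 5 of 6 (kept without day 0 replicate 1, otherwise adjusted p up to 0.262) and Fas in 1 of 6 (without day 0 replicate 3, adjusted p up to 0.066). The block added Ccnd3 (-1.67, adjusted p = 0.00237), Cdkn2a (-1.84, adjusted p = 0.0239) and Perp (-1.13, adjusted p = 0.0357) as lower.

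Among 15 cholesterol and lipid genes, 4 rose and 0 fell (median 0.49). Hmgcs1 and Sqle, enzymes of sterol synthesis, were at 230.2, 197 and 130.1 CPM and 103, 74.4 and 55.1 CPM on day 0 and at 325, 358 and 344 CPM and 135, 136 and 140.3 CPM on day 6. Day 6 was above day 0 in every library (0.88 ± 0.27 and 0.82 ± 0.20, adjusted p = 0.0438 and 0.00714). The desaturase Scd1 changed by 1.13 ± 0.33 (adjusted p = 0.0302) and the lipase Lpl by 1.43 ± 0.43 (adjusted p = 0.0385). Hmgcs1 lost its call in 5 of 6 (kept without day 0 replicate 1, otherwise adjusted p up to 0.224) and Sqle in 1 of 6 (without day 0 replicate 3, adjusted p up to 0.0827). Scd1 lost its call in 5 of 6 (kept without day 6 replicate 1, otherwise adjusted p up to 0.125) and Lpl in all 6 (adjusted p up to 0.177). The block added Dhcr7 (0.96, adjusted p = 0.00265) and Scd2 (0.79, adjusted p = 0.0187) as higher.

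Of 20 glycolysis and mitochondrial genes (median 0.17) and 16 hypoxia genes (median 0.44), edgeR and DESeq2 called 0, and 5 and 3 had an unadjusted p below 0.05. With the block the lactate dehydrogenase gene Ldhb (0.78, adjusted p = 0.0493), the coactivator gene Ppargc1b (1.21, adjusted p = 0.0229) and the mTOR inhibitor gene Ddit4 (1.55, adjusted p = 0.0431) were higher and hexokinase 1 (Hk1) lower (adjusted p = 0.0136). Among 22 imprinted genes, H19, at 13.8, 32.3 and 116 CPM and then 0.394, 3.34 and 5.1 CPM, fell with the fibroblast order on day 0 (-4.16 ± 1.23, adjusted p = 0.032), Phlda2 fell (-1.93 ± 0.48, adjusted p = 0.01), and 0 rose (median -0.06). H19 is a maternally expressed RNA, and Phlda2 limits placental growth. The calls among the 22 stand beside 7.88% called over all genes tested. Peg3 was higher with the block (0.91, adjusted p = 0.036). H19 lost its call in 4 of 6 (kept without day 0 replicates 1 and 2, otherwise adjusted p up to 0.183) and Phlda2 in 1 of 6 (without day 6 replicate 3, adjusted p up to 0.0594). Of 35 stem cell and let-7 microRNA genes, 31 were in the table and 15 had enough counts to be tested (median -0.26). By edgeR and DESeq2 0 were called, and 1 had an unadjusted p below 0.05. None of them exceeded 2.85 CPM in the 6 libraries.

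By fold change, the genes that rose most, with no overlap and a mean of at least 5 CPM, were Cubn, Irs4, Pcdh8, Fgf5, Prox1, Clic6, Slc9a7, Skida1, St8sia3, Slc35d3, Car14 and Enpp2. Irs4, an insulin receptor substrate, was at 2.26, 2.75 and 1.17 CPM and then 21.3, 37 and 25.1 CPM (3.77 ± 0.61, adjusted p = 0.00014). Pcdh8, a protocadherin gene of paraxial mesoderm, was at 0.831, 0.855 and 1.08 CPM and then 10.7, 13.3 and 13.1 CPM (3.73 ± 0.67, adjusted p = 0.000504), with its 3 day 6 libraries close together. Slc9a7, a sodium-proton exchanger of the Golgi, was at 2.79, 1.78 and 2.38 CPM and then 42.4, 15.2 and 17.4 CPM, highest in replicate 1 (3.43 ± 0.53, adjusted p = 7.82e-05). Prox1, Clic6, Skida1, St8sia3, Slc35d3, Car14 and Enpp2 changed by 3.02 (Enpp2) to 3.62 (Prox1), with adjusted p from 0.000746 to 0.00942. Prox1 is a homeobox factor, and Enpp2 encodes autotaxin, which makes lysophosphatidic acid and is abundant in visceral endoderm. All but Cubn passed in each fit that left out 1 library, which is no independent support for genes picked from these libraries.

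Among the 10 rises with the smallest p, no gene overlapped between the days, which held in this direction for 12.2% of all genes tested. Choice by p from these same libraries favours such genes. Stk39, a stress kinase gene, was at 8.07, 6.47 and 10.6 CPM and then 43.4, 50.2 and 44.8 CPM (2.46 ± 0.30, adjusted p = 6.48e-06). Cacna1b, a calcium channel gene, was at 5.46, 7.06 and 8.87 CPM and then 30.3, 32.1 and 36.6 CPM (2.21 ± 0.30, adjusted p = 1.89e-05). The day 6 libraries lay close together in both. Podxl, an apical sialomucin gene used as a marker of lumen formation, was at 20.3, 31.9 and 16.6 CPM, 86, 216 and 179.7 CPM and, on day 10, 434, 503 and 542 CPM (2.81 ± 0.40, adjusted p = 3.01e-05). Myb, the proto-oncogene factor of progenitor cells, was at 6.59, 5.91 and 3.6 CPM, 33, 40.3 and 43.7 CPM and, on day 10, 5.92, 10.9 and 9.61 CPM (2.87 ± 0.43, adjusted p = 6.18e-05), highest on day 6. Ptpn13, Cdc14a, St6gal1, Rnf144a and Sort1 changed by 1.35 (Rnf144a) to 2.00 (Ptpn13), with adjusted p up to 0.000101. With Slc9a7 these make 10 genes. All 10 passed in each fit that left out 1 library, which the choice by smallest p also favours.

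Among called genes without overlap between the days and with a mean of at least 5 CPM, the 12 deepest falls were those of Cavin2, S100a4, Dkk2, Vcam1, Il1rl1, Ccl7, Col12a1, Ereg, Ccl11, Tnc, Fgf7 and Lox. Each had day 0 levels in the fibroblast order, and 3 of them (S100a4, Ccl7 and Lox) belong to the fibroblast list. Tnc, the tenascin C gene, was at 454, 1527 and 2851 CPM and then 6.75, 6.67 and 18.1 CPM (-7.25 ± 0.85, adjusted p = 3.13e-06). Il1rl1, the receptor of interleukin 33, was at 38.4, 83 and 150.0 CPM and then 0.113, 0.363 and 0.429 CPM (-8.11 ± 0.87, adjusted p = 8.53e-07). Col12a1, a fibril-associated collagen gene, changed by -7.61 ± 1.02 (adjusted p = 1.68e-05). Cavin2, Dkk2, Vcam1, Ccl7, Ereg, Ccl11 and Fgf7 had no more than 8 counts in any day 6 library, and no fold is given for them (adjusted p from 4.56e-06 to 0.000234). Cavin2 was at 5.52, 19.4 and 47.1 CPM on day 0 and had 1 count in the 3 libraries of day 6. Among the falls of smallest p were Stat3, Socs3, Crabp1, Il1rl1 and Lox, given above, with S100a6 (-6.06 ± 0.61, adjusted p = 5.52e-07), Thbd (-5.84 ± 0.60, adjusted p = 5.52e-07), Fbln2 (-6.68 ± 0.69, adjusted p = 5.52e-07) and Gm2115 (-6.84 ± 0.80, adjusted p = 2.87e-06). Of these 9, Stat3 and Socs3 alone lacked the fibroblast order on day 0. All the genes of this paragraph passed in each fit that left out 1 library, which their choice from these libraries by fold or p favours.

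The same step was measured in 3 other lines with their own libraries (3 for each day), which share the fit and its estimate of the spread with WT. CaPS replicate 1 stood apart in the same way as WT replicate 1, with 18756434 and 18229914 counts on days 0 and 6, Rn45s at 3.8% and 4.4%, even numbers at 43.5% and 42.9% and Gapdh at 12.3 and 7.4 CPM. Even numbers made up 77.3% to 82.2% in replicate 1 of the KO and mCaPS lines. In the KO line 728 genes rose (4.09%) and 561 fell (3.15%), in CaPS 481 (2.7%) and 588 (3.31%), and in mCaPS 602 (3.38%) and 1299 (7.3%). Genes called higher in both WT and KO numbered 338, which is 58.3% of the WT list and 46.4% of the KO list. For CaPS the number was 246 (42.4% and 51.1%) and for mCaPS 249 (42.9% and 41.4%). Genes called lower in both numbered 393 in KO (47.8% of the WT list and 70.1% of the other), 456 in CaPS (55.5% and 77.6%) and 650 in mCaPS (79.1% and 50.0%). Of the 580 WT rises, 577 had the same sign in KO, 571 in CaPS and 541 in mCaPS, and of the 822 falls 811, 812 and 821 did. Over all genes tested the sign was the same in 76.9%, 77.0% and 73.5%. Socs3 fell in all 3, by -3.89, -3.73 and -4.08 (adjusted p = 1.14e-05, 1.2e-05 and 1.95e-06). Otx2 was called in mCaPS alone (1.24, 1.49 and 2.14, adjusted p = 0.226, 0.133 and 0.0193). Fgf5 was called in none (1.93, 1.97 and 0.68, adjusted p = 0.115, 0.112 and 0.599).

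A test of the difference between a line's change and that of WT called 0 genes in KO (0%), 0 in CaPS (0%) and 1 in mCaPS (0.00562%). By unadjusted p below 0.05, 513, 353 and 584 of the 17791 genes tested passed, and by DESeq2 with adjusted p 0, 0 and 13 did. The unadjusted counts were all smaller shares than the 0.05 that would pass if no gene differed. The gene in mCaPS was Sox17. In mCaPS it was at 2.47, 1.24 and 11.5 CPM on day 0 and 0.902, 2.0 and 0.938 CPM on day 6. Day 0 replicate 3 was the highest of these, in the library where Rn45s took 88.7% of the counts. In WT the levels, given above, rose. The difference of the changes was -6.64 ± 1.14 (log2, SE; adjusted p = 0.0423). It was lost in the blocked fit (-6.11 ± 1.17, adjusted p = 0.584) and without 5 of the 6 WT libraries, with adjusted p from 0.0804 to 0.443, and was kept without day 6 replicate 1 (adjusted p = 0.00215). The medians of the streak list were 1.78 in WT, 0.92 in KO, 1.27 in CaPS and -1.99 in mCaPS, and those of the endoderm list 1.45, 1.59, 1.87 and -0.58. Foxa2 was at 17.3, 8.65 and 28.7 CPM on day 0 and 2.07, 5.64 and 4.29 CPM on day 6 in mCaPS, without a call for the change (-2.17, adjusted p = 0.166) or for its difference from WT (adjusted p = 0.704).

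**Figure D5:**
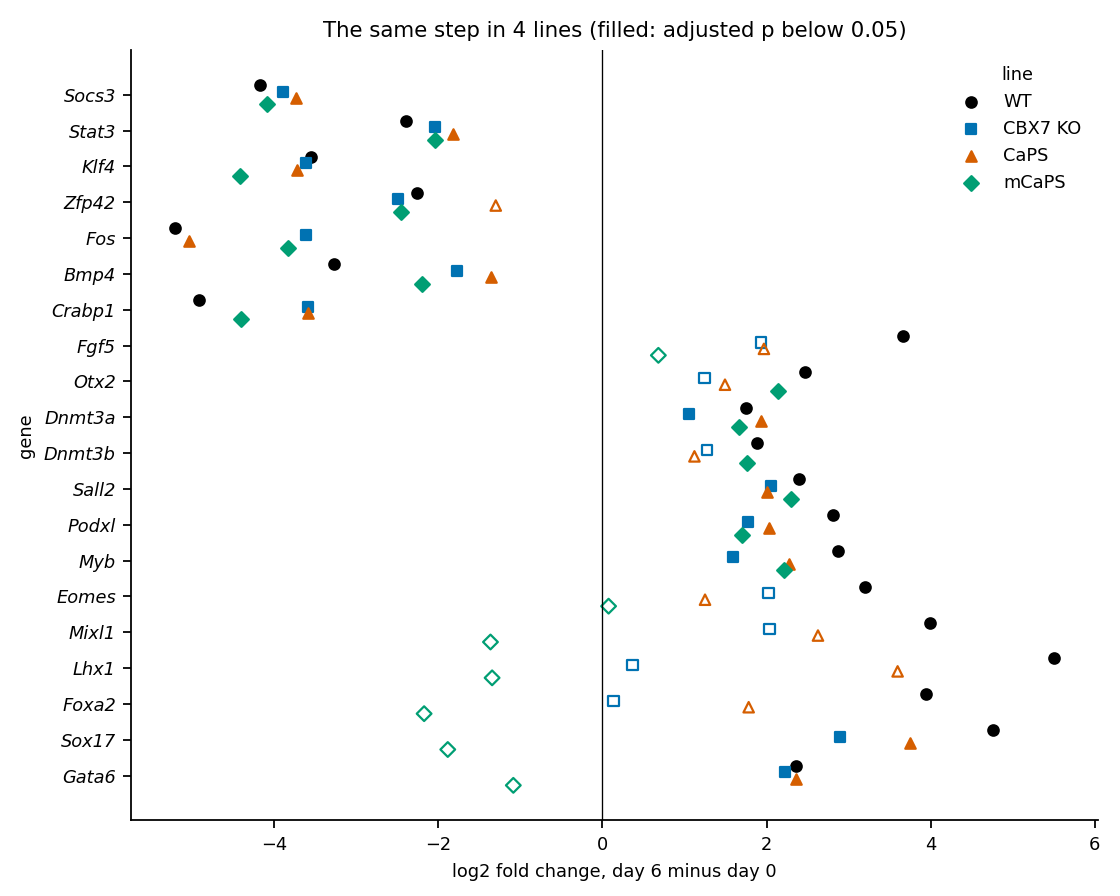
Log2 fold change from day 0 to day 6 (x axis) of 20 genes (y axis) in the WT, CBX7 KO, CaPS and mCaPS lines (n = 3 libraries a day). Filled symbols passed at an adjusted p below 0.05. Socs3 lies between -4.18 and -3.73 in the 4 lines, while Sox17 lies at 4.76 in WT and at -1.88 in mCaPS.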

How the data were processed

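Whole-number counts per gene, deposited by the authors in one table for embryoid bodies, were analysed for days 0 and 6 of the WT line. Per the submitters' processing notes, the tools were STAR 2.7.0 with the mm10 build, featureCounts 1.6.3, cutadapt 1.14, HOMER 4.10.4 and edgeR. The role of each tool and the strand setting of the counting are not given in the sources used here, so reads of overlapping, antisense or near-identical genes cannot be told apart. Of 24984 genes, 23 whose names had become dates were left out, and 9 columns that match no sample were not used.

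All 36 libraries (12 groups of line and day, 3 libraries each) were fitted with edgeR 4.0.16 in R 4.3.3 (TMM scaling, filterByExpr, robust quasi-likelihood, 17791 genes, Benjamini-Hochberg adjustment over all of them, threshold 0.05). The common dispersion was 0.152. CPM and RPKM use the TMM-scaled library sizes, and pair ratios use a pseudocount of 0.5. On simulated counts for these 17791 genes with 200 changed, 7% of the 2-fold and 49% of the 4-fold changes were recovered for the day 6 against day 0 contrast, with 1 false call. The members and lists were chosen with earlier results of these data known. Named genes are list members, the 12 highest and 12 lowest fold changes without overlap and with a mean of at least 5 CPM, and the 10 smallest p in each direction. Some genes counted within the lists are not reported here by name. Of 580 list entries, 6 were not found in the table by name.

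Unless another fit is named, counts and values are from the fit without a replicate block. That fit was set as the main one, with the block as an alternative. Its standard errors and p-values leave out the pairing by replicate number described next. The numbers met the criterion set for pairing, a correlation above 0.1 in every pair: same-numbered day 0 and day 6 libraries deviated together from their group means (correlations 0.51, 0.29 and 0.30 for replicates 1, 2 and 3). Replicates 2 and 3 also correlated across numbers (0.21 and 0.23), and replicate 1 against the others was negative. The labels do not state what a number marks. Alternatives were RLE size factors, DESeq2 1.42.0, no filter, 6 libraries alone, each library left out, replicate 1 of WT and CaPS left out, the replicate 1 pair alone, a replicate block, the mean log2(CPM + 1) of 22 fibroblast and feeder genes as a covariate, and Rn45s left out. Promoter sequences came from RefSeq (GRCm38.p6).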

Additional observations from a re-analysis of the deposited data

Results flagged for a closer look

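Sox17 differed between lines in the change from day 0 to day 6. The change in mCaPS minus the change in WT was -6.64 ± 1.14 (log2, SE; adjusted p = 0.0423 by edgeR's quasi-likelihood test), the one gene of 17791 called in that test. WT levels were at 0.297, 0.52 and 0.0883 CPM on day 0 and 0.9, 15.4 and 7.11 CPM on day 6, higher in 3 of 3 day 6 libraries. In mCaPS they were at 2.47, 1.24 and 11.5 CPM and then 0.902, 2.0 and 0.938 CPM. KO levels went from 0.924, 0.348 and 0.678 CPM to 2.08, 9.13 and 3.49 CPM (2.90, adjusted p = 0.0165) and CaPS levels from 1.05, 0.599 and 0.36 CPM to 7.94, 6.31 and 12.4 CPM (3.75, adjusted p = 0.004). Over the other fits of all 36 libraries the adjusted p of the difference ranged from 5.14e-07 with DESeq2 to 0.584 with the replicate block. With WT and CaPS replicate 1 left out it was 0.0577, with no filter 0.057 and with the fibroblast covariate 0.0618. Without 1 WT library it was 0.243 (day 0 replicate 1), 0.0826 (day 0 replicate 2), 0.443 (day 0 replicate 3), 0.00215 (day 6 replicate 1), 0.292 (day 6 replicate 2) and 0.0804 (day 6 replicate 3).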

How the results depend on the processing

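The number of genes higher on day 6 (580) was 873 with DESeq2, 232 in the 6 WT libraries alone, 1129 with the replicate block in 36 libraries, 955 with the block in 6 libraries, 930 with the fibroblast covariate, and 254 to 506 when 1 library was left out. The number lower (822) was 423 in the 6 WT libraries alone, 1271 with the replicate block in 36 libraries, and 444 to 910 when 1 library was left out. For the change in mCaPS against WT, the count of 1 was 13 with DESeq2 and 0 with no filter, without replicate 1 of WT and CaPS, with the replicate block and with the fibroblast covariate. For 132 genes (125 called and 7 not called without the block: Pou5f1, Sox2, Nanog, Esrrb, T, Cbx7 and Cbx2), the same direction and side of the threshold were found in 132 with DESeq2, 131 with RLE size factors, 130 without Rn45s, 117 with no filter, 116 without replicate 1 of WT and CaPS, 89 in the 6 WT libraries, 129 with the replicate block (all but Mixl1, Eomes and Foxa2) and 43 with the fibroblast covariate. The block changed no other call among these 132. Genes of the lists outside the 132 that the block added are given beside their lists.

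The sign turned with the fibroblast covariate in 33 of these genes, and the cause was not tested. Their log2 fold changes then were, for LIF and naive genes, Bcl3 0.59, Pim1 0.07, Tfcp2l1 0.70, Nanog 0.33 and Esrrb 0.74, and for formative and streak genes Otx2 -0.25, Dnmt3b -0.45 and T -0.44. For mesenchymal genes they were Pdgfra 0.30, Col1a1 3.38, Col1a2 0.15, Col3a1 1.96, Col6a3 2.28, Thy1 0.09, Pdgfrb 2.17, Vim 0.46, Cdh11 0.94 and Snai2 3.49, where genes of the list itself make up the covariate. For Hox genes they were Hoxc6 0.29, Hoxc8 2.95, Hoxb9 2.49, Hoxb4 0.92 and Hoxc10 4.66. The rest were Emx2 1.18, Cldn7 -0.07, Jun 0.55, Egr1 0.61, Grem1 0.13, Wnt5a 1.27, Ccnd1 0.07, Cdkn2b 1.17, Hmgcs1 -0.04 and Cbx7 1.78. In the replicate 1 pair alone the sign was turned for Mixl1 (-0.77), Gsc (-0.04), Foxa2 (-0.64), Cxcr4 (-0.26) and Dkk1 (-0.13). Cbx7, which was not called, ranged from -0.33 to 0.04 when 1 library was left out (0.00 without day 0 replicate 2 and 0.04 without day 6 replicate 1), and T, also not called, from -0.17 (without day 6 replicate 2) to 2.86. Replicate 1 held 13474664 counts on day 0 and 13124625 on day 6, so genes below 1 CPM rest on few reads there.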
